A study of Mus musculus with 9 samples.

Results

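The 9 genes Crx, Nrl, Nr2e3, Rorb, Rxrg, Neurod1, Mef2c, Mef2d and Prdm1 encode transcription factors of the photoreceptor programme. They were found by name: every probe that is not a control and whose gene name in the scanner output is one of these symbols. This gave 13 of 39429 probes and 9 of 31829 genes, with 2 probes each for Nrl, Rxrg, Neurod1 and Mef2d. The probes were matched by name and not by a measured value, but the genes were chosen with earlier results of these data known. Expression was measured on 9 dual-colour Agilent mouse arrays, 3 of the choroid (CH), 3 of the retinal pigment epithelium (RPE) and 3 of the photoreceptors (PR). All samples came from female C57BL/6 mice (J strain by the methods text), aged 6 months ± 2 weeks by the sample labels and a month less by the methods text. Each tissue was cut from cryosections with a laser microscope, and 1 whole eye was used for a sample. A dissected layer can hold RNA of the neighbouring layers, and fewer cells of a type cannot be told apart from less RNA per cell. The amplified tissue RNA was labelled with Cy5, and each array also received Cy3-labelled RNA of 1 common RPE and choroid reference, with no dye swap among the 9 arrays. The value used is the log2 ratio of Cy5 to Cy3, and a value of 0 means equal normalized signal in both channels, which can differ from equal RNA by a dye effect of the probe.

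Rods and cones arise from shared retinal precursors, and a small network of factors drives their fate and keeps their genes on in the adult. CRX is the homeodomain protein that activates most photoreceptor genes. NRL, a leucine zipper protein of the MAF family, directs precursors to the rod fate, and NR2E3, an orphan nuclear receptor under its control, represses cone genes in rods. RORB is a nuclear receptor that acts before NRL, and RXRG is a retinoid X receptor best known in cones. NEUROD1 is a basic helix-loop-helix factor needed for photoreceptor maintenance. MEF2C and MEF2D are MADS-box factors, of which MEF2D works with CRX at retinal enhancers. PRDM1 is a zinc finger repressor that holds photoreceptor precursors back from the bipolar cell fate and is also the regulator of plasma cells.

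The promoters of 4 members whose levels moved together are printed to show what their sequences share and do not share. They are the 250 bases before the RefSeq start on GRCm38.p6, written 5′ to 3′ on the strand of the gene. Capitals mark matches, on either strand, to TAATCC (the CRX and OTX core), TGCTGA (the NRL and MAF core), AGGTCA (the nuclear receptor core), CAGATG (an E-box), CAGCTG (another E-box), GAAAGT (the PRDM1 core) or the MEF2 site. The promoters lie at chr7:15879956-15880205 on the minus strand for Crx, chr14:55524253-55524502 on the minus strand for Nrl, chr9:59950080-59950329 on the minus strand for Nr2e3 and chr2:79456637-79456886 on the minus strand for Neurod1.
Crx: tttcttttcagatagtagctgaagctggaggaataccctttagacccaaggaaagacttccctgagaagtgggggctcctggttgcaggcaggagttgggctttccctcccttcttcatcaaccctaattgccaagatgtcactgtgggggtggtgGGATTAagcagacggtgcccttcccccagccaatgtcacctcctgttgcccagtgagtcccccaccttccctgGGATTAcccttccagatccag
Nrl: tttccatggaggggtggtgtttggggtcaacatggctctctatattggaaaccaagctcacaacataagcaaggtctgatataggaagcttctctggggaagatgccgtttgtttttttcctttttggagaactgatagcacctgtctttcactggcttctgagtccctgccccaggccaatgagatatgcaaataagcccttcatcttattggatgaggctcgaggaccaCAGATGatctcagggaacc
Nr2e3: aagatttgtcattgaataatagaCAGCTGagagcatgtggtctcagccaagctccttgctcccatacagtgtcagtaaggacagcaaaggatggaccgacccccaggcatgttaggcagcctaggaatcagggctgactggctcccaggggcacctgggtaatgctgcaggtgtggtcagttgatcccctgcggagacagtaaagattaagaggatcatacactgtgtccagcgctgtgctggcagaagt
Neurod1: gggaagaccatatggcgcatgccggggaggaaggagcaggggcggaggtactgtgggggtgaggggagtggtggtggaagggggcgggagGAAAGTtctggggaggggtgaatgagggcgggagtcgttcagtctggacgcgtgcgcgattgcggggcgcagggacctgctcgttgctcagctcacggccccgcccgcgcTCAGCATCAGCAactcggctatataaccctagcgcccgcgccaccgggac
The Crx promoter held TAATCC on the opposite strand from -94 to -89 and from -21 to -16, counted from the start. It was the 1 promoter of the 13 RefSeq promoters of the 9 members with this motif, which 6.25% of 32841 promoters held. The Neurod1 promoter held TGCTGA on the opposite strand in a pair of adjoining matches, from -50 to -45 and from -44 to -39, and GAAAGT from -160 to -155. TGCTGA was found in 4 of the 13 promoters (30.8%), of Rorb, Neurod1, Mef2c and Mef2d, and in 16.1% of all promoters. The Nrl promoter held CAGATG from -19 to -14, and the Nr2e3 promoter held CAGCTG from -227 to -222. These E-boxes were in 14.4% and 13.0% of all promoters. AGGTCA was found in 3 of the 13 promoters (23.1%), of Rxrg and Mef2c, and in 14.0% of all promoters. GAAAGT was in 2 of the 13 (15.4%), of Neurod1 and Mef2c, and in 12.3% of all promoters. The MEF2 site was in 0 of the 13 promoters of the members and in 2.92% of all promoters. In none of the 4 printed promoters did matches to different motifs overlap. A match is a description of the letters in this window.

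The median Cy5 signal of the arrays lay between 617 and 1534, and between 62.1% and 91.7% of the probes were well above background in Cy5, with the highest share on the array of RPE replicate 2. The arrays lay on 3 slides. Slide 1 held PR replicates 1 and 3 and no other tissue, slide 2 held replicates 1 and 3 of the CH and of the RPE, and slide 3 held replicate 2 of each tissue. The marker genes matched the dissected layers in part. Of 8 RPE markers, 7 were higher in the RPE than the PR and 6 were higher in the RPE than the CH, but all of 18 rod genes were well above background on every CH and RPE array. The summed Cy5 signal of these rod genes, on the log2 scale, ranged from 20.4 to 21.0 in CH samples, from 20.9 to 21.2 in RPE samples and from 22.1 to 22.7 in PR samples. Of the 13 member probes, 12 were likewise well above background on all CH and RPE arrays and on all 9 arrays in the reference channel.

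At the brightest probe, 7 of the 9 factors were called higher in the PR than the RPE: Neurod1, Nrl, Crx, Nr2e3, Mef2d, Rorb and Mef2c. A call needed a fold change (FC) above 2.5, which is 1.32 on the log2 scale, and a Benjamini-Hochberg adjusted p-value below 0.01 in the limma fit over all probes. The same 7 genes were called higher in the PR than the CH. No member was called in the opposite direction, and no member was called between the RPE and the CH. Over all genes tested, 5.19% were called higher in the PR than the RPE and 10.9% lower, and 6.01% were called higher in the PR than the CH and 12.7% lower. Between the RPE and the CH, 0.179% were called higher in the RPE and 1.74% higher in the CH. The median log2 difference of the members was 1.65 for PR minus RPE and 2.09 for PR minus CH, against 0.0045 and 0.048 over all genes. Both comparisons use the same 3 PR arrays, so they are not independent of each other. Rxrg and Prdm1 were the members that were not called, and 4 of the 13 probes were not called.

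**Figure D1:**
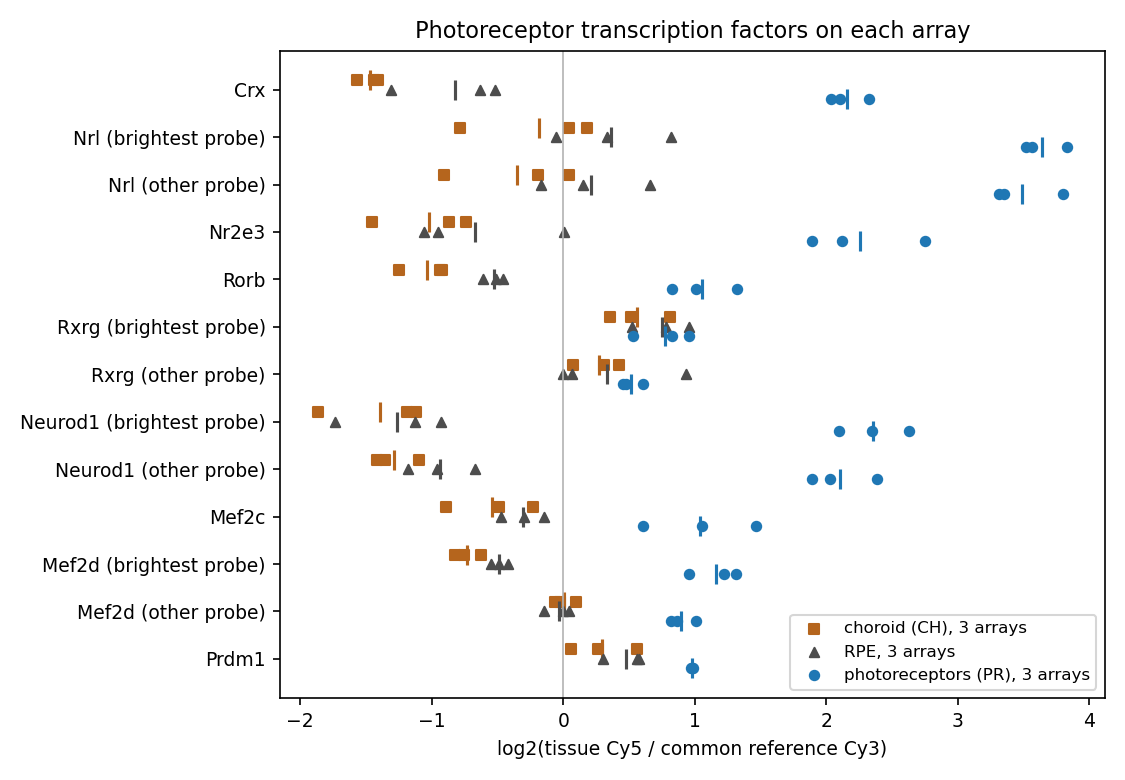
Each row is a probe of a member and each symbol an array (squares CH, triangles RPE, circles PR, 3 arrays each, with a vertical bar at the mean), on a horizontal axis of the log2 ratio of tissue Cy5 to common reference Cy3. The PR arrays lie to the right of all CH and RPE arrays for every brightest probe but that of Rxrg. The share of all genes with such a separation was not counted.

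Crx, the homeodomain activator (NM_007770, probe at chr7:16452217-16452276 on mm9, minus strand), had log2 ratios of 2.04, 2.10 and 2.32 in the PR. In the RPE the 3 arrays gave -0.52, -1.31 and -0.63, and in the CH they gave -1.56, -1.41 and -1.44. All PR arrays thus lay above 0 and all RPE and CH arrays below it. The Crx level was 7.87-fold higher in the PR than the RPE (log2 difference 2.98 ± 0.19, SE, adjusted p = 7.12e-07, limma) and 12.4-fold higher than in the CH (log2 difference 3.63 ± 0.19, adjusted p = 1.42e-07). Its promoter was the one with the CRX core shown above.

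Nrl, the rod determinant (NM_001136074), had log2 ratios of 3.56, 3.83 and 3.52 in the PR at its brightest probe (chr14:56138357-56138416, mm9, minus strand). The RPE arrays gave 0.82, -0.05 and 0.33, and the CH arrays -0.79, 0.04 and 0.18. The RPE and CH arrays overlapped and all 3 PR arrays were far above both. The log2 difference was 3.27 ± 0.27 (SE, adjusted p = 5.07e-06, limma) against the RPE and 3.83 ± 0.27 (adjusted p = 1.33e-06) against the CH. This probe was saturated on 2 of the 3 PR arrays, so these differences are not exact. The other probe shares 52 bases with it and was saturated on all 3 PR arrays, so that its difference has only a bound. The normalized Cy5 signal of the PR exceeded that of the RPE at least 2.85-fold and that of the CH at least 3.78-fold, with no dye swap among the arrays. The limma fit of its log ratios gave adjusted p-values of 4.83e-06 and 1.24e-06. With the Cy5 signal in place of the ratio, the brightest probe differed by 1.27 between PR and RPE (adjusted p = 0.00183) and missed the fold change. The normalized log2 Cy3 signal of the reference at this probe was 15.2, 15.1 and 14.8 on the PR arrays. On the RPE arrays it was 16.8, 17.2 and 17.0, so the reference channel holds part of the ratio difference. The cause was not tested.

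Nr2e3, the repressor of cone genes in rods (NM_013708, chr9:59791054-59791113, mm9, minus strand), had log2 ratios of 1.89, 2.75 and 2.12 in the PR. The RPE arrays gave 0.01, -1.06 and -0.95, and the CH arrays -1.46, -0.74 and -0.87. RPE replicate 1 stood above the other RPE and CH arrays, but below all PR arrays. The FC was 7.57 against the RPE (log2 difference 2.92 ± 0.32, SE, adjusted p = 3.43e-05, limma) and 9.68 against the CH (log2 difference 3.28 ± 0.32, adjusted p = 1.26e-05).

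Neurod1, the helix-loop-helix factor (NM_010894), was called at both of its probes in both comparisons with the PR. Its brightest probe (chr2:79293621-79293680, mm9, minus strand) had log2 ratios of 2.35, 2.10 and 2.63 in the PR, -0.93, -1.73 and -1.13 in the RPE and -1.87, -1.12 and -1.19 in the CH. The PR arrays were separate and the RPE and CH arrays overlapped. The PR was 12.3-fold above the RPE (log2 difference 3.62 ± 0.25, SE, adjusted p = 1.43e-06, limma) and 13.4-fold above the CH (3.75 ± 0.25, adjusted p = 8.75e-07). A probe placed elsewhere in the gene, at chr2:79294309-79294368, gave log2 differences of 3.04 and 3.39. Neurod1 is also known from bipolar and amacrine cells. Of 14 marker genes of the inner retina, 1 was called higher in the PR than the RPE (Grm6, the glutamate receptor of ON bipolar cells, by 1.69) and 2 were called lower. The summed Cy5 signal of these 14 genes ranged on the log2 scale from 16.7 to 17.2 in PR samples, from 17.5 to 17.7 in RPE samples and from 17.5 to 17.6 in CH samples. The part of these cells in the Neurod1 result was not tested.

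Rorb, the nuclear receptor upstream of Nrl (NM_001043354, chr19:19012149-19012208, mm9, minus strand), differed by less. Its log2 ratios were 1.01, 1.32 and 0.83 in the PR, -0.46, -0.51 and -0.61 in the RPE and -1.25, -0.94 and -0.92 in the CH. The 3 tissues did not overlap. The PR was 2.99-fold above the RPE (log2 difference 1.58 ± 0.14, SE, adjusted p = 7.7e-06, limma) and 4.25-fold above the CH (2.09 ± 0.14, adjusted p = 8.48e-07).

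The probes of Mef2c and Mef2d include the pair of member probes whose mm9 positions span more bases than the 60 of the probe, so that they cross an intron. Their sequences are printed because they show the spliced transcript that was read, and because the 2 Mef2d probes gave different values.
Mef2c: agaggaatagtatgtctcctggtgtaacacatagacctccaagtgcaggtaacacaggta
Mef2d, the other probe: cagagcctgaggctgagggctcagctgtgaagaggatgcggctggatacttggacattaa
Mef2c (NM_025282, chr13:83772788-83775025, mm9, plus strand) had log2 ratios of 0.61, 1.47 and 1.05 in the PR, -0.15, -0.30 and -0.47 in the RPE and -0.23, -0.49 and -0.89 in the CH. PR replicate 1 was the lowest and PR replicate 2 the highest PR array, and no PR array overlapped the other tissues. The FC against the RPE was 2.54, next to the threshold (log2 difference 1.35 ± 0.23, SE, adjusted p = 0.000652, limma), and 2.99 against the CH (1.58 ± 0.23, adjusted p = 0.000193). The call against the RPE was lost without PR replicate 2 (1.13, adjusted p = 0.00171), without RPE replicate 3 (1.26, adjusted p = 0.00356) and with the Cy5 signal alone (1.85, adjusted p = 0.0121). MEF2C is also known from endothelium, muscle and microglia. In the PR against the RPE, 5 of 6 endothelial markers, 6 of 7 smooth muscle and pericyte markers and 3 of 6 macrophage and leukocyte markers were called lower and 0 higher. The summed endothelial signal was between 13.9 and 14.3 in the PR and between 17.0 and 17.4 in the CH on the log2 scale, and the part of these cells in the Mef2c values was not tested.

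Mef2d, the CRX partner (NM_133665), had log2 ratios of 1.22, 0.96 and 1.31 in the PR at its brightest probe (chr3:87972971-87973030, mm9, plus strand), -0.42, -0.55 and -0.49 in the RPE and -0.82, -0.63 and -0.75 in the CH. The arrays of the 3 tissues did not overlap. The FC was 3.14 against the RPE (log2 difference 1.65 ± 0.11, SE, adjusted p = 1.1e-06, limma) and 3.72 against the CH (1.90 ± 0.11, adjusted p = 3.25e-07). The other probe, printed above (chr3:87972214-87972560), gave smaller differences of 0.93 ± 0.097 (adjusted p = 2.43e-05) and 0.89 ± 0.097 (adjusted p = 2.68e-05), under the FC threshold. It was well above background on 1 of 3 CH arrays, 1 of 3 RPE arrays, all 3 PR arrays and 3 of 9 arrays in the reference channel. With the processed signals of the scanner software it reached 1.66 and 1.54 and was called in both comparisons.

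Rxrg, the cone-linked retinoid X receptor (NM_009107), did not differ beyond its spread. Its brightest probe (chr1:169569496-169569555, mm9, plus strand) had log2 ratios of 0.83, 0.53 and 0.95 in the PR, 0.78, 0.53 and 0.96 in the RPE and 0.81, 0.36 and 0.51 in the CH. The 3 tissues overlapped. The log2 difference of PR minus RPE was 0.017 with a 95% confidence interval from -0.35 to 0.38 (adjusted p = 0.946, limma), and that of PR minus CH was 0.21 with an interval from -0.15 to 0.57 (adjusted p = 0.314). The other probe (chr1:169569624-169569683) gave 0.18 (interval -0.32 to 0.68) and 0.24 (interval -0.25 to 0.74). All these intervals end below the threshold of 1.32. The brightest probe moved with the slide in both channels. Its log2 Cy5 signal was between 12.3 and 12.6 on slide 3 and between 14.9 and 15.5 on slides 1 and 2, and its log2 Cy3 signal was between 11.9 and 12.1 on slide 3 and between 14.0 and 14.6 on the others. The log2 ratio also was lowest on the slide 3 array in each of the 3 tissues, at 0.36 in the CH, 0.53 in the RPE and 0.53 in the PR. Cone genes as a group did differ: all of 10 cone genes were called higher in the PR than the RPE.

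Prdm1, the repressor of the bipolar fate (NM_007548, chr10:44157089-44157148, mm9, minus strand), had log2 ratios of 0.99, 0.97 and 0.98 in the PR, 0.57, 0.56 and 0.31 in the RPE and 0.56, 0.26 and 0.06 in the CH. Every PR array lay above every RPE and CH array, but the step was small. The log2 difference was 0.50 ± 0.13 (SE, adjusted p = 0.0107, limma) against the RPE and 0.69 ± 0.13 (adjusted p = 0.00153) against the CH, FCs of 1.41 and 1.61. Among 6 markers of B lineage and plasma cells, where PRDM1 also acts, 1 was called higher in the PR than the RPE (Igj, the joining chain of immunoglobulins, by 2.25) and 2 were called lower. The summed signal of these markers ranged on the log2 scale from 14.7 to 15.1 in PR samples, from 15.2 to 15.5 in RPE samples and from 15.3 to 15.9 in CH samples, and their part in the Prdm1 values was not tested.

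**Figure D2:**
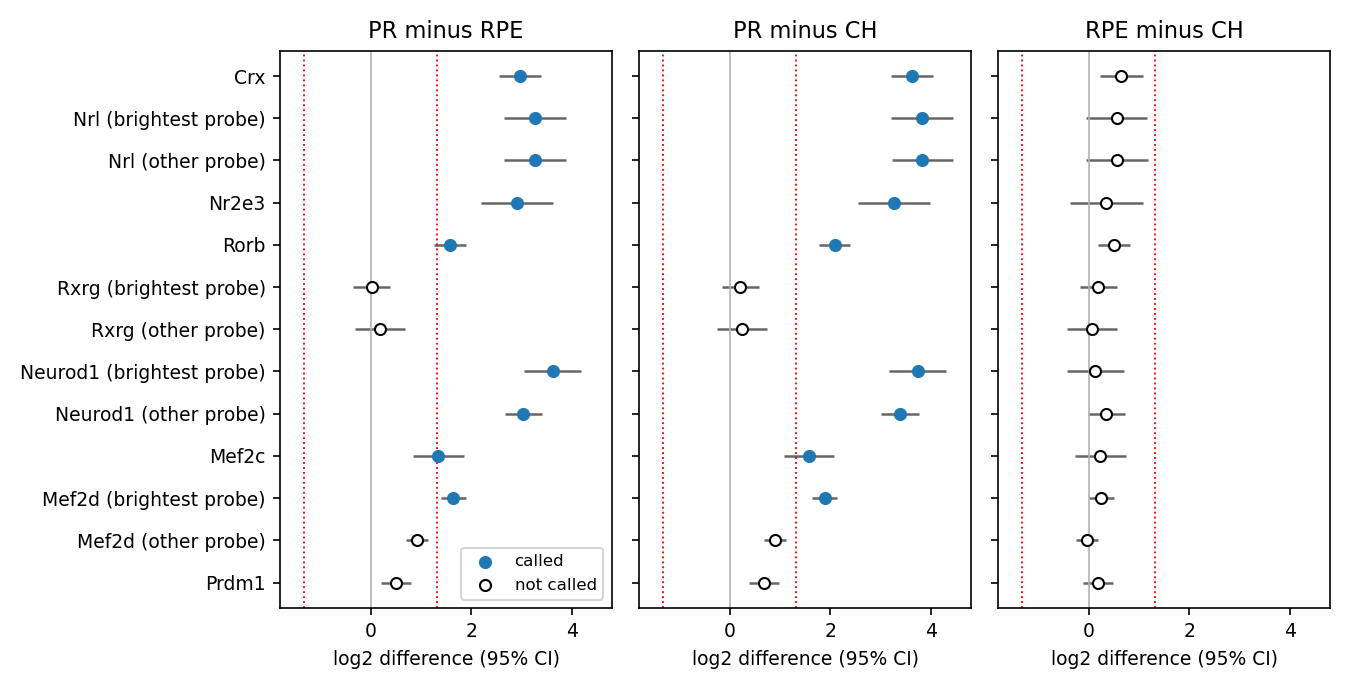
Log2 difference of each member probe in the 3 comparisons, with horizontal bars for the 95% confidence interval of the limma fit, dotted lines at a fold change of 2.5 in either direction, filled circles for called probes and open circles for probes not called. In the left and middle panels 9 of 13 probes are filled, and in the right panel none is.

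In the order of tissues, the mean log2 ratio was lowest in the CH and highest in the PR at the brightest probe of all 9 members. For Rxrg the step from RPE to PR was 0.017 (adjusted p = 0.946, limma) and turned sign under some alternative settings. The step from CH to RPE was small, with log2 differences between 0.13 (Neurod1) and 0.65 (Crx). The largest were those of Crx (0.65 ± 0.19, SE, adjusted p = 0.0332, limma), Nrl (0.55 ± 0.27, adjusted p = 0.194) and Rorb (0.51 ± 0.14, adjusted p = 0.0273). The 3 RPE arrays lay above the 3 CH arrays for 3 of the 9 members, Crx, Rorb and Mef2d. At the other 6 members the neighbours CH and RPE overlapped. The share of all genes with such an order of tissues, or with such a separation of arrays, was not counted. On slide 2, which held 2 arrays of each of these tissues, the RPE minus CH difference was 0.93 for Crx (adjusted p = 0.0263), 0.88 for Nrl, 0.69 for Nr2e3, 0.55 for Rorb and 0.50 for Neurod1, and no member was called. On slide 3 alone, with 1 array per tissue and no test, the differences were 0.10 for Crx, -0.095 for Nrl, -0.32 for Nr2e3, 0.43 for Rorb and -0.61 for Neurod1. The 18 rod genes had a median RPE minus CH difference of 0.57, all 18 had a difference above 0 and none was called. Over all genes the median was 0.031, and the share above 0 was not counted. The mean log2 ratio of the 18 rod genes was -0.93, -0.56 and -0.20 on the CH arrays and 0.52, -0.36 and -0.03 on the RPE arrays. CH replicate 1 had the lowest and RPE replicate 1 the highest value of the 6 arrays, as they did for 6 members, Crx, Nrl, Nr2e3, Rorb, Neurod1 and Mef2d. The part of rod RNA in these layers in the RPE minus CH values was not tested.

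**Figure D3:**
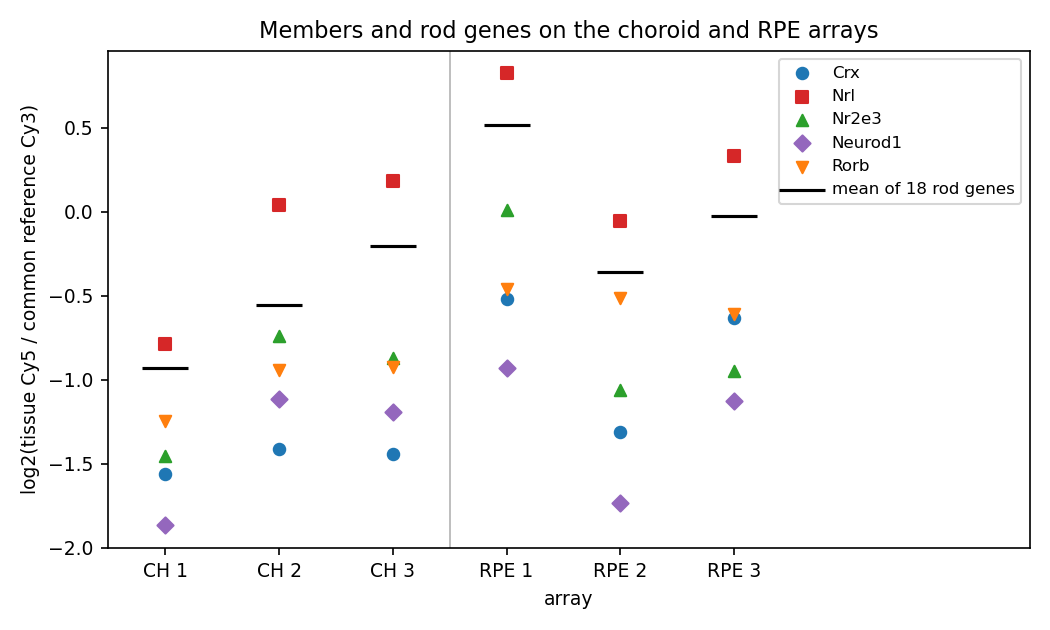
Log2 ratio of tissue Cy5 to common reference Cy3 (vertical axis) of 5 members at their brightest probe on the 3 CH and 3 RPE arrays (horizontal axis), with the mean of 18 rod genes on each array as a black bar. CH replicate 1 and RPE replicate 1 hold the lowest and the highest bar, at -0.93 and 0.52.

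The other genes of the network split. Of 13 partners and modifiers of the photoreceptor network, 7 were called higher in the PR than the RPE and 8 higher than in the CH, and 0 were called lower. The list's median log2 difference was 1.36 against the RPE and 1.76 against the CH. Samd7 and Samd11, cofactors in rod chromatin silencing, rose by 3.19 and 2.85 against the RPE. Casz1, a zinc finger factor of retinal cell fate, rose by 3.14, Esrrb, an orphan nuclear receptor of rods, by 2.77 and Rax, the retinal homeobox factor, by 2.70. Thrb, the thyroid hormone receptor of cones and partner of RXRG, rose by 1.36, and Sp4, a zinc finger partner of CRX, by 1.39. Otx2, the factor that activates Crx, had the lowest value of the list, a log2 difference of -0.87 between PR and RPE (adjusted p = 0.0265), and was the 1 gene of the list called higher in the RPE than the CH, by 1.35 (adjusted p = 0.00789). Its log2 ratios were 0.53, 0.73 and 0.74 in the PR, 1.58, 1.78 and 1.25 in the RPE and -0.29, -0.09 and 0.95 in the CH. Otx2 is also known as an RPE gene.

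Close relatives of the members from the same protein families did not follow them as a group. Of 17, 3 were called higher in the PR than the RPE, 3 lower and 11 not, and the counts against the CH were the same. The median log2 difference was 0.16 against the RPE, near the 0.0045 of all genes. Prdm8, a relative of Prdm1, rose by 2.78, Rora, a relative of Rorb, by 1.77 and Neurod4, a relative of Neurod1, was 2.83-fold higher. Maf, a relative of Nrl, fell by 3.43, and Nr2e1, the relative of Nr2e3 known from neural stem cells and Müller glia, fell by 3.95. For Nrl and Nr2e3 the families thus held relatives called in the opposite direction.

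The listed rod and cone genes, picked as photoreceptor genes, were higher in the PR without exception at the brightest probe. Whether the members control them was not tested. All 18 rod genes and all 10 cone genes were called higher in the PR than the RPE and than in the CH. The rod gene Cngb1 was read at a probe that the array files name BC016201 and place on chromosome 5. The fitted log2 differences of PR minus RPE of the rod genes were 1.82 (Slc24a1, the rod sodium calcium exchanger) or more, with a median of 3.34. Those of the cone genes were 1.92 (Gnb3, a transducin subunit) or more, with a median of 3.17, and 1 cone gene was saturated on a PR array. Of the 18 rod genes, 11 were saturated on at least 1 PR array and 6 on all 3 (Gnat1, Gngt1, Pde6g, Sag, Prph2 and Rom1), so that their fitted differences are not exact and the highest rod gene is not named. The mean log2 Cy5 signal of these 6 was 18.7 in the PR and from 17.3 (Sag) to 18.2 (Pde6g) in the RPE. The reference channel thus holds part of their ratio differences. For Prph2 the log2 Cy3 signal was 17.2, 17.8 and 17.9 on the RPE arrays and 14.3, 14.2 and 13.5 on the PR arrays. For Slc24a1, which was not saturated, it was 13.9, 14.0 and 13.9 on the RPE arrays and 13.9, 13.8 and 13.6 on the PR arrays. The cause was not tested. Of 6 Müller glia markers, 4 were called lower in the PR than the RPE and 0 higher. The lowest, Apoe at -3.79, was saturated on all 3 RPE arrays. The other 2 lay above 0 and were not called, with Slc1a3 the highest at 0.69 (adjusted p = 0.139, limma). The part of Müller glia RNA in the PR was not tested. Of 6 skeletal muscle markers, 1 was called lower and 0 higher.

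**Figure D4:**
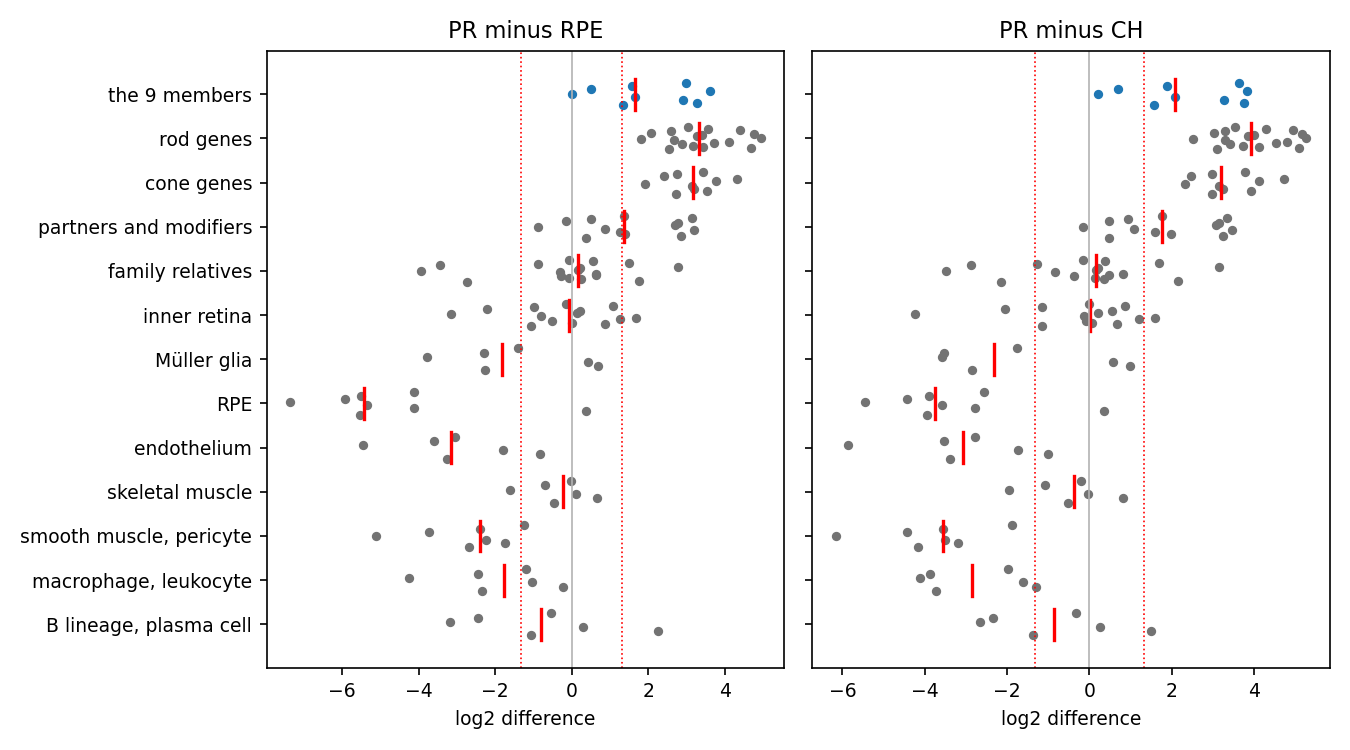
Log2 difference of the members (blue) and of 12 gene lists (grey), 1 point per gene at its brightest probe and a red bar at the median, for PR minus RPE (left) and PR minus CH (right), with dotted lines at a fold change of 2.5. All rod and cone genes lie to the right of the right dotted line, while the family relatives lie on both sides.

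The genes with the pattern nearest to each member were searched over the 9 log2 ratios, each centred on its own mean, among 21487 genes well above background in at least 1 tissue. The measure is the root mean square difference in log2 units. Crx was nearest to Rp1l1, an outer segment gene, at 0.14, and then to Cacnb2 and Abca13. Nrl was nearest to Insm1, a zinc finger factor, at 0.11, then to Pdzph1 and to Pde6a, a rod phosphodiesterase subunit. For Nr2e3 the nearest were Elovl4, an elongase of very long chain fatty acids, at 0.22, and Cacna2d4. For Neurod1 they were Ppm1n at 0.13, a transcript with no symbol in the RefSeq table, and Impg2, of the interphotoreceptor matrix, at 0.17. For Rorb they were Mtcl1 at 0.11, Adal and Ccndbp1, and for Mef2d they were Ccdc14 at 0.074, a cDNA named A830005F24Rik and Vps13a. Mef2c lay nearest to the histone gene H3c4 at 0.12, a predicted gene and Cacna2d3. Prdm1 lay nearest to E430018J23Rik at 0.0675, Nfx1 and Suv39h2, and Rxrg, whose ratios hardly varied, nearest to Tas2r113 at 0.063, Actr1b and Adra2b. Genes with small differences have many near neighbours on this measure, so the distances of Rxrg and Prdm1 cannot be read against those of Crx.

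The slide bears on all comparisons with the PR, since 2 of the 3 PR arrays had slide 1 to themselves. With the slide as a fixed block, the 7 called members stayed called and their log2 differences of PR minus RPE lay between 1.42 and 3.56. On slide 3, the one with all 3 tissues, the same differences were between 1.51 and 3.89 with no test. Without RPE replicate 2, the array with the most probes above background, they were between 1.35 and 3.39. Under the alternative settings, the brightest probes of Crx, Nr2e3, Rorb, Neurod1 and Mef2d stayed called against the RPE in all 22, Nrl in 20 of 21 and Mef2c in 19 of 22.

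**Figure D5:**
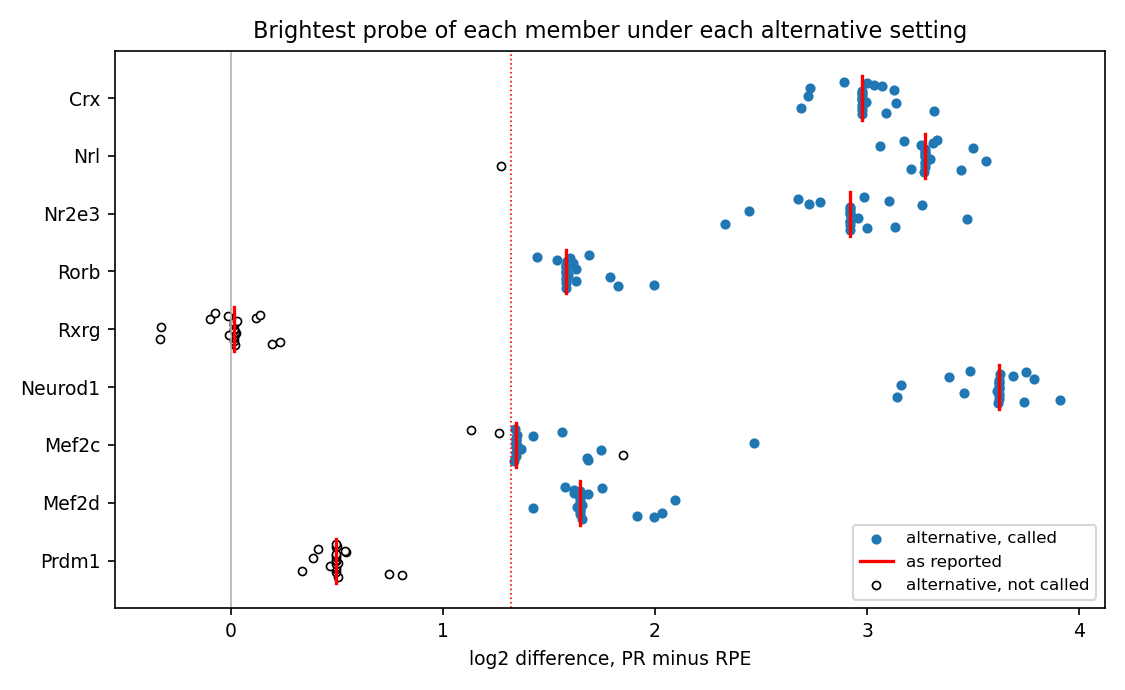
Log2 difference of PR minus RPE at the brightest probe of each member under each alternative setting that gave a test (filled circles called, open circles not called), with the reported value as a red bar and the fold change threshold as a dotted line. Open circles appear for Mef2c at 1.13, 1.26 and 1.85, for Nrl at 1.27 and for all settings of Rxrg and Prdm1.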

How the data were processed

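RNA from laser-dissected choroid (CH), RPE and photoreceptors (PR) was amplified and hybridised on 9 Agilent arrays, 3 per tissue. The authors deposited the scanner output of Feature Extraction 9.5.3.1 (per the labels), with spot intensity in both channels on a linear scale that is not normalized. They also deposited a log2 table, whose columns correlated with the Cy5 signal at 0.984 or more and whose medians lay between 9.38 and 9.55. Its normalization is not given in the sources used here. The submitters' processing notes name R 2.14.0 and limma.

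Mean signals were corrected for local background (normexp, offset 50) and normalized within arrays (loess) with limma 3.58.1 in R 4.3.3. Control and outlier spots carried no weight and were then left out, spots of a probe were averaged, and tissue means were fitted with lmFit and eBayes over 39429 probes. A call needed FC > 2.5 and an adjusted p-value below 0.01, which is the threshold of the study's methods. Values in the text are means of 3 arrays, SE and confidence intervals come from this fit, and a gene was counted at the probe brightest over the 9 arrays. Each sample took 1 whole eye, but whether samples of different tissues shared an animal is not given in the sources used here, so p-values measure the spread between these samples. No dye was swapped, so a dye effect of a probe cancels between tissues but not against the reference. The number of arrays limits the precision.

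The members and gene lists were chosen with earlier results of these data known. All 13 member probes are named, with the lists' genes called against both tissues and the lists' lowest and highest values, and the 3 genes nearest to each member. Some genes that this choice would name are not reported here. Symbols of RefSeq (GRCm38.p6) matched 26055 probes, and promoters came from the same build, while probe positions are those of the array files (mm9). The fit was tested on simulated data. The alternatives changed background correction, normalization, the channel used, arrays, blocks, filters, variance model and thresholds. The slide with CH and RPE arrays was fitted alone as a choice made after seeing the data.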

Additional observations from a re-analysis of the deposited data

How the results depend on the processing

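The counts of members called in the 6 directions stayed within 1.5 times the reported count under all 25 alternatives for counts. Of the single values, Mef2c and Nrl lost a call in PR minus RPE as given in the report, and the other probe of Mef2d gained both calls with the processed signals. The cause was not tested. Differences that were near 0 turned sign, at adjusted p-values of 0.265 or more in limma. For PR minus RPE, the brightest Rxrg probe gave -0.33 with Cy5 alone, -0.0088 with the slide as a fixed block, -0.33 with the deposited series table and from -0.098 to 0.14 when each array was left out in turn. For PR minus CH it gave -0.0019 with Cy5 alone. For RPE minus CH, median centring gave -0.045 and -0.20 for the 2 Rxrg probes, -0.15 for the brightest Neurod1 probe, 0.067 for the other Mef2d probe and -0.035 for Prdm1. The other Rxrg probe gave -0.012 with Cy5 alone and -0.019 with the series table. Leaving out each array in turn gave from -0.23 to 0.23 for the other Rxrg probe, from -0.11 to 0.36 for the brightest Neurod1 probe and from -0.074 to 0.020 for the other Mef2d probe in RPE minus CH. With a replicate block, 7 members were called higher in the PR than the RPE, 7 higher than in the CH and 0 in the other directions, as without it. Over all genes the block moved the calls from 1653 to 1658 for PR above RPE, from 3461 to 3466 for RPE above PR, from 1914 to 1916 for PR above CH, from 4053 to 4062 for CH above PR, from 57 to 54 for RPE above CH and from 555 to 561 for CH above RPE. Same-numbered arrays deviated together with correlations from -0.0782 to 0.286 and 4 of 9 arrays correlated best with their own number, so the numbers were not taken as a pairing, and the block changed no call of a member at its brightest probe. Saturation of Nrl limits its upper values and the dim other Mef2d probe its lower ones. Slide 1 held PR arrays alone, so slide and tissue can be told apart through slide 3 only, with 1 array per tissue.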
